A study of Mus musculus with 2 samples.

Results

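Regulators and markers of extraembryonic endoderm were followed in single-cell RNA-sequencing libraries of telomerase-deficient mouse embryonic stem cells (mESCs). They were the 10 genes Gata4, Gata6, Sox17, Sox7, Foxa2, Hhex, Dab2, Pdgfra, Cubn and Srgn, and all 10 had a column in both tables. The genes were chosen by name from 38458 gene columns, with earlier results of these data known. The cells were E14 mESCs of the line DKO741, a line in which both alleles of Terc (the RNA template of telomerase) had been replaced by gene targeting and drug selection. Pre-ALT cells (PD100, passage 100 by the label) still had long telomeres, whereas PD800 cells (passage 800) survived by ALT, the alternative lengthening of telomeres without telomerase. Both time points therefore shared the Terc deletion and came from the same line. Stocks were kept on feeder fibroblasts and feeder-free cells were used for experiments.

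Each time point had 1 inDrops library, a droplet method in which captured transcripts carry unique molecular identifiers (UMIs), so that time point and library cannot be told apart and no test between them was made. Cells with at least 1000 UMIs and at most 20% mitochondrial UMIs were kept, which left 814 PD100 cells and 900 PD800 cells. PD100 cells were divided by Col4a1 and Col4a2, which encode the chains of basement-membrane type IV collagen. The 34 cells with at least 3 UMIs of this pair were called Col4-high (4.18% of PD100 cells, 95% interval 2.91 to 5.79%), and the other 780 formed the comparison group. No PD100 cell had exactly 3 such UMIs. Just inside the threshold were 4 cells with 4 UMIs and just outside were 10 cells with 2 UMIs, and the highest cell had 31. No kept PD800 cell had more than 2, so that no Col4-high cell was kept in PD800. Median depth was 2314 UMIs in Col4-high cells, 2148.5 in the other PD100 cells and 2701.5 in PD800 cells. Every interval below is a 95% interval of counting error alone, and UMIs of 1 cell are not independent of each other.

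The label of mESC was checked against stem cell transcripts. Pou5f1, the core pluripotency factor, was found in 63.4% of PD100 cells and 64.3% of PD800 cells. Dppa5a, an abundant mESC transcript, was found in 99.1% and 99.7%. No Terc UMI was counted in either library, which checks nothing about the deletion, because Terc RNA largely lacks the poly(A) tail that the method primes from. Of the barcode names, 8 were shared by kept cells of both tables, and no Col4-high cell was among them.

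Primitive endoderm is the lineage that separates from the epiblast in the blastocyst, under FGF signalling, and its cells switch on GATA6, PDGFRA, SOX17, GATA4 and SOX7 in an overlapping order. Its descendants are visceral endoderm, an absorptive epithelium around the epiblast that is known for endocytosis and secreted carrier proteins, and parietal endoderm, which migrates along the trophoblast and lays down a thick basement membrane of laminin and type IV collagen. FOXA2, HHEX and cubilin are mainly known from visceral endoderm among these tissues, and serglycin from parietal endoderm, whereas the remaining 6 genes are shared in part or in full.

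Promoter sequences of Srgn and Dab2 are shown because these 2 genes gave the most UMIs of the 10 in Col4-high cells. RefSeq windows of the 250 bases before a transcription start (GRCm38.p6) were given for 6 of the genes, with 10 windows in all. Gata4, Gata6, Sox17 and Sox7 had no window. Searched on both strands, the letters AGATA or TGATA (a core that GATA factors bind) occurred in windows of 3 of the 6 genes, Foxa2, Srgn and Dab2, against 40.6% of 27025 genes with a window. The longer letters AGATAA or TGATAA, which overlap the former, occurred in 2 of 6 genes against 17.0%. The letters ACAATG or ACAAAG (a SOX core) occurred in 1 gene, Foxa2, against 25.5%, and TGTTTA (a forkhead core) in 1 gene, Dab2, against 12.0%. Each of the 6 genes counted with a match in any of its windows. The shares of all genes used 1 window per gene, so counts and shares are not on the same basis. Counted by window, these letters occurred, in the order given, in 3, 2, 1 and 1 of 10 windows. Of all 32851 windows, 13151, 5452, 8292 and 3952 had them. The windows below are written 5′ to 3′ on the gene's strand, with the GATA letters in capitals. The Dab2 window with the GATA letters lies at chr15:6299539-6299788 (plus strand), where the match begins 179 bases before the start. Another Dab2 window, at chr15:6386498-6386747, had no GATA letters and held the forkhead match. The Srgn window with the GATA letters lies at chr10:62527446-62527695 (minus strand), where the match begins 101 bases before the start. Another Srgn window, at chr10:62507758-62508007, had no GATA letters. A match is a description of letters and not of a bound site.
Dab2: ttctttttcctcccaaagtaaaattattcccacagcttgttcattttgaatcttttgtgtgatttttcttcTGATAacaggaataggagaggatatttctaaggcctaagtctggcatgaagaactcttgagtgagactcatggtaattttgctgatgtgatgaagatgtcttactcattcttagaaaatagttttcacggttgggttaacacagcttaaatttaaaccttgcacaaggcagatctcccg
Srgn: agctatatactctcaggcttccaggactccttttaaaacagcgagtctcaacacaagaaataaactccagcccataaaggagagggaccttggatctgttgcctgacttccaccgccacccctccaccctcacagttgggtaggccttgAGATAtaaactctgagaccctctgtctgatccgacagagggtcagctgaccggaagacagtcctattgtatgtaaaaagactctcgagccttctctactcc

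To ask which of these genes marked the collagen-rich cells, their UMIs were summed over the cells of each group and scaled to the same total (CPM, UMIs of a gene per 1000000 UMIs of the group). Of the 10 genes, 9 reached 10 UMIs over PD100 cells, and 8 of these had a CPM at least 2-fold higher in Col4-high cells than in the other PD100 cells, while 18.2% of 9556 genes did so. By the stricter rule that the whole interval of the ratio lies past 2-fold, the same 8 were counted against 3.68% of genes. Only 5 of the 10 genes reached 10 UMIs in the other PD100 cells alone, so the others passed the minimum only through the group where they were high, and the count of 8 is a description rather than support. The gene that reached the minimum and was not higher was Hhex, and Pdgfra did not reach it.

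The GATA factors open the endoderm programme in primitive endoderm. Gata6 (chr18:11052064-11085635) gave 39 UMIs in 20 of 34 Col4-high cells, 15 UMIs in 8 of 780 other PD100 cells, and none in 900 PD800 cells. These are 504 CPM (358 to 689) in Col4-high cells, 8.58 CPM (4.80 to 14.1) in the other PD100 cells and a floor of 1.16 CPM in PD800, the level of 3 UMIs in that library. The log2 ratio of CPM between Col4-high and other PD100 cells was 5.88 (4.99 to 6.84), and the share of cells with a UMI was 58.8% (40.7 to 75.4) against 1.03%. Gata4 (chr14:63198922-63271692), which acts beside Gata6 and is needed for mature endoderm, gave fewer UMIs, 14 in 8 Col4-high cells, 5 in 5 other PD100 cells and 2 in 2 PD800 cells. Its log2 ratio was 5.98 (4.43 to 7.81). At least 1 UMI of either GATA factor was found in 22 Col4-high cells, and both were found together in 6.

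SOX17 and SOX7 are related SRY-box factors that follow the GATA factors in the lineage, SOX7 later than SOX17. Sox17 (chr1:4490931-4497354) gave 27 UMIs in 17 Col4-high cells, 16 in 9 other PD100 cells and 2 in 2 PD800 cells, with a log2 ratio of CPM of 5.25 (4.31 to 6.24). Sox7 (chr14:63943673-63950732) gave 8 UMIs in 6 Col4-high cells, 5 in 3 other PD100 cells and 1 in PD800, which gave 5.18 on the log2 scale between the PD100 groups (3.38 to 7.13). The shares of cells, 17 of 34 for Sox17 and 6 of 34 for Sox7, lay above the 1.15% and 0.385% in the other PD100 cells. The intervals of the ratios for the 4 GATA and SOX factors overlap each other, so that these counts do not order them. A UMI of at least 1 of the 4 factors was found in 28 of 34 Col4-high cells (82.4%, 65.5 to 93.2), in 19 of 780 other PD100 cells and in 5 of 900 PD800 cells.

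FOXA2 and HHEX are transcription factors of visceral endoderm and of its anterior part in particular. Foxa2 (chr2:148042877-148046969) gave 6 UMIs, 2 in each of 3 Col4-high cells, 4 UMIs in 3 other PD100 cells and 1 in PD800. Its log2 ratio of CPM was 5.08 (3.01 to 7.35). Hhex (chr19:37434810-37440731) differed from the other 9 genes in that it had no UMI in the 34 kept Col4-high cells. Without the cell filter, 2.63% of 38 Col4-high PD100 barcodes had a Hhex UMI. Among kept cells, Hhex gave 13 UMIs in 9 other PD100 cells and 11 UMIs in 10 PD800 cells. Because 3 UMIs over the 34 cells would already be 38.8 CPM, above the 7.43 CPM of the other PD100 cells, a difference in Hhex was not detectable at this depth, and 0 of 34 cells allows a share of cells with a UMI of up to 8.82% by the floor of 3 counts (exact binomial upper limit 10.3%). Of the 9 PD100 cells with Hhex, none had a Col4 UMI, 2 had a UMI of another of the 10 genes and 5 had a UMI of Pou5f1. The 10 PD800 cells with Hhex had none of the other 9 genes.

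DAB2 is a clathrin adaptor and cubilin is the receptor that it helps to internalise, and serglycin is a proteoglycan of secretory granules. Dab2 (chr15:6299788-6440712) gave 46 UMIs in 17 Col4-high cells, 17 in 13 other PD100 cells and 9 in 5 PD800 cells, with a log2 ratio of CPM of 5.93 (5.10 to 6.83). Up to 8 Dab2 UMIs were found in a cell, and 17 of 34 Col4-high cells compare with 1.67% of other PD100 cells and 0.556% of PD800 cells. Cubn (chr2:13276338-13491813) gave 8 UMIs in 5 Col4-high cells, 7 in 5 other PD100 cells and 1 in PD800, and the PD100 groups differed by 4.69 (3.03 to 6.39) on the log2 scale. All 5 Col4-high cells with Cubn also had Gata6, and 4 of the 5 had Dab2.

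Srgn (chr10:62493833-62527451) was the most frequent of the 10 genes in Col4-high cells, with 158 UMIs in 26 of 34 cells, a median of 3 and up to 20 in a cell. The other PD100 cells held 23 Srgn UMIs in 17 cells, and PD800 cells held none. The CPM of 2042 (1736 to 2387) against 13.2 (8.34 to 19.7) is a log2 ratio of 7.28 (6.64 to 7.98). This interval lay above those of Sox17 and Cubn and overlapped those of the other 5 genes with a ratio. Pdgfra (chr5:75152292-75198215), the PDGF receptor that is an early surface marker of primitive endoderm, was close to the limit of detection, with 3 UMIs in 3 Col4-high cells, 2 in 2 other PD100 cells and 1 in PD800. No ratio is given for Pdgfra between the PD100 groups, because both were at or under 3 UMIs. Positions are those of GENCODE M21 on GRCm38. An opposite-strand gene overlaps Gata6 (1010001N08Rik, 3 UMIs in PD100), and the overlapping genes of Dab2 and Cubn that have a column had no PD100 UMI.

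**Figure D1:**
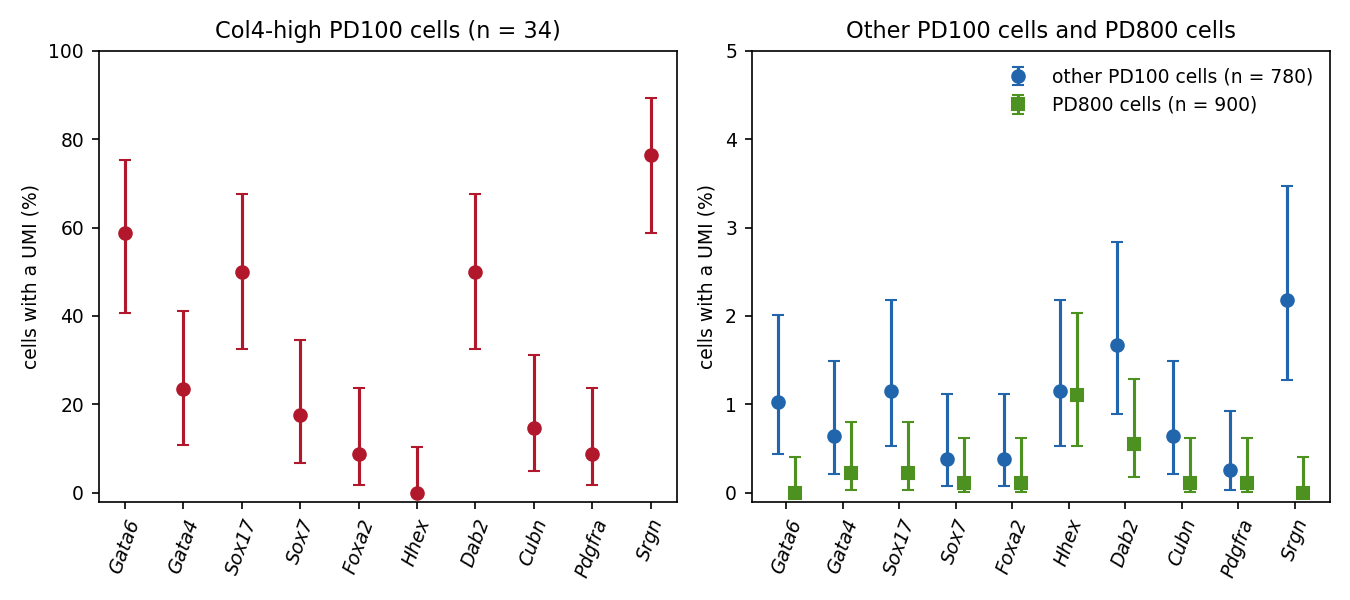
Share of cells with at least 1 UMI of each gene (y axis, %, with exact binomial 95% intervals) in the 34 Col4-high PD100 cells (left) and in the other 780 PD100 cells and 900 PD800 cells (right, with a smaller scale). Srgn reached 76.5% and Gata6 58.8% of Col4-high cells, Hhex was at 0%, and no gene passed 2.18% in the other groups.

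Free RNA in droplets can put UMIs into cells that do not express a gene. The other PD100 cells, all of which carried stem cell transcripts but some of which also held UMIs of the Col4 pair and the parietal list, gave shares of 0.256 to 2.18% for the 10 genes at a median depth close to that of Col4-high cells. After each cell was thinned to 1000 UMIs, the share of Col4-high cells with a UMI was 64.7% for Srgn, 41.2% for Gata6, 35.3% for Dab2, 17.6% for Sox17, 11.8% for Sox7 and Cubn, 8.82% for Gata4, and 5.88% for Foxa2 and Pdgfra. In the other PD100 cells the thinned shares ran from 0% to 1.03%, the highest being that of Srgn.

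UMIs of several of the genes other than Hhex were often found in the same Col4-high cell. A Col4-high cell held UMIs of a median of 3 of the 10 genes (range 0 to 6), and 31 of 34 cells held at least 2 (91.2%, 76.3 to 98.1). After thinning, 22 of 34 cells did so (64.7%). Of the other PD100 cells, 8 of 780 held at least 2 (1.03%, 0.444 to 2.01) and 723 held none. No PD800 cell held more than 1, and 23 of 900 held exactly 1, and 0 of 900 allows a share of cells with UMIs of at least 2 genes of up to 0.333% by the floor of 3 counts (exact binomial upper limit 0.409%). The cell with 6 of the genes also had the most Col4 UMIs, 31, and the Col4-high cell with none of the genes had 4 Col4 UMIs, 1683 UMIs in all, 2 UMIs of the parietal list and 12 of the stem cell list.

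**Figure D2:**
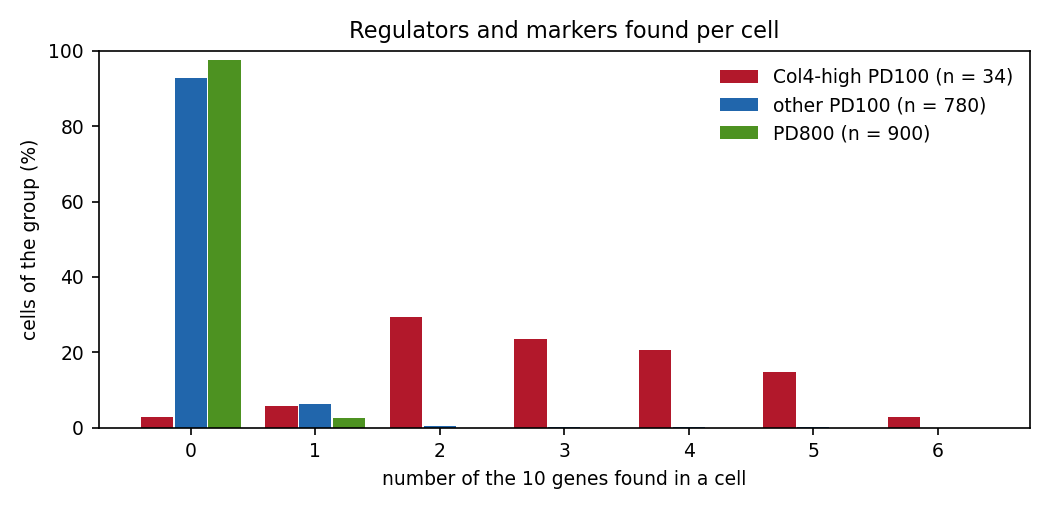
Number of the 10 genes with at least 1 UMI in a cell (x axis) against the share of cells of each group (y axis, %). Bars for PD800 end at 1 gene, whereas 91.2% of Col4-high PD100 cells held at least 2.

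The 8 other PD100 cells with at least 2 of the genes fell into separate kinds. Of these, 6 had 1 or 2 Col4 UMIs, just under the threshold, and they held 42 of the 107 UMIs of the 10 genes in the other PD100 cells. These 6 cells also held 6 to 18 UMIs of the parietal list, and Gata6 was found in 5 of them. The other 2 cells had no Col4 UMI and no parietal UMI, and both had Hhex, with Srgn in 1 and Sox17 in the other. Over all PD100 cells with 1 or 2 Col4 UMIs, 33 cells held 46 UMIs of the 10 genes, whereas 747 cells without a Col4 UMI held 61. On either side of the threshold, the 10 cells with 2 Col4 UMIs held 19 UMIs of the genes and the 4 cells with 4 held 27.

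Within the 34 Col4-high cells, the genes were not spread in the same way over the range of Col4 UMIs. Srgn was found in 24 of the 25 cells with 6 or more Col4 UMIs and in 2 of the 9 cells with 4 or 5. Dab2 was found in 11 of 25 and 6 of 9 of these cells, and Gata6 in 13 of 25 and 7 of 9. After thinning, Srgn was found in 20 of 25 and 2 of 9 cells. Median depth was 2559 UMIs in the former cells and 1934 in the latter. This division was chosen after the values were seen and was not tested.

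**Figure D3:**
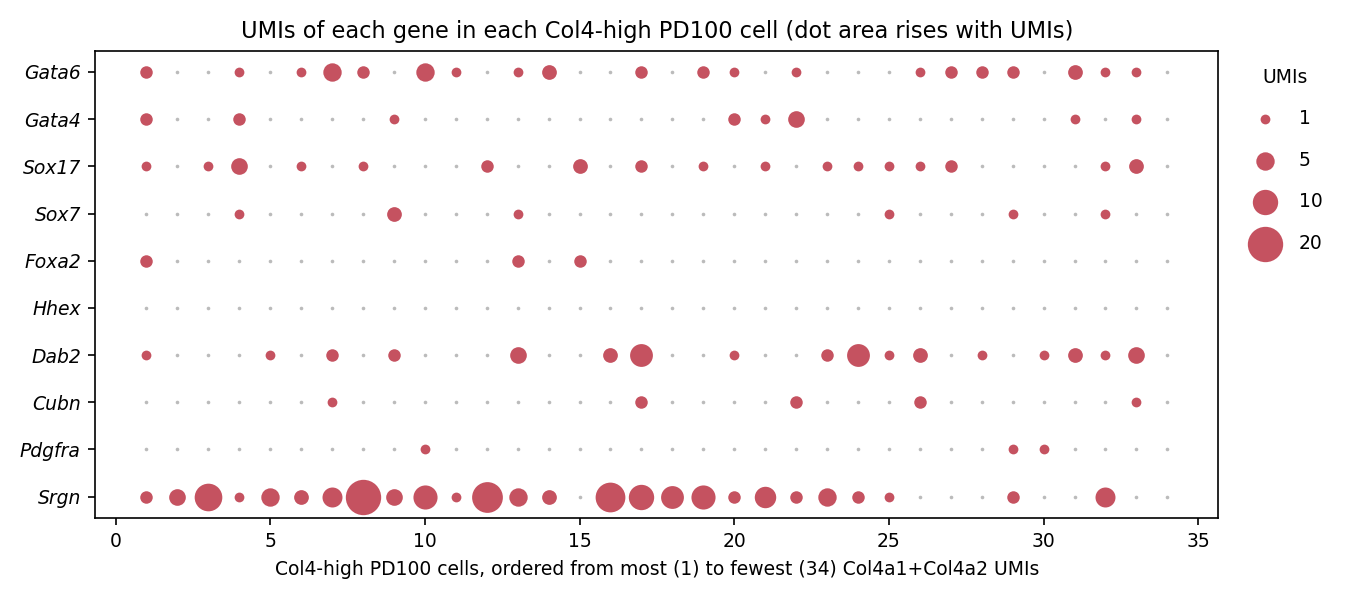
UMIs of each gene (rows) in each of the 34 Col4-high PD100 cells (x axis, ordered from the most to the fewest Col4a1 and Col4a2 UMIs), with dot area rising with the number of UMIs and grey points for 0. Srgn fills nearly all of the cells at the left and few of the last 9, whereas Gata6, Sox17 and Dab2 are scattered over the whole range and Hhex is empty.

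The share of a gene's PD100 UMIs that lay in Col4-high cells gives its concentration there, and 4.24% of all UMIs did. This share was 87.3% for Srgn, 73.7% for Gata4, 73.0% for Dab2, 72.2% for Gata6, 62.8% for Sox17, 61.5% for Sox7, 6 of 10 UMIs for Foxa2 and 3 of 5 for Pdgfra, 53.3% for Cubn and 0% for Hhex. Among 7452 genes with at least 20 UMIs that did not define the cells, the median was 3.56%, and Srgn, Dab2, Gata6 and Sox17 took ranks 3, 9, 10 and 14. The other genes most like them by this share were Tinagl1 (28 of 30 UMIs), Ctsh (28 of 31), Lama1 (105 of 128), Pth1r (17 of 21), P4ha1 (42 of 56), Serpinh1 (217 of 295), Cryab (105 of 143), Lamb1 (98 of 139), F3 (30 of 46) and Tfpi (154 of 245). Lama1 and Lamb1 encode laminin chains, P4ha1 hydroxylates collagen, Serpinh1 is the collagen chaperone HSP47, and Pth1r is the parathyroid hormone receptor known from parietal endoderm.

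To ask which endoderm the cells resembled in transcripts other than the 10 genes, lists of markers were counted. These lists too were chosen with earlier results of these data known. In the parietal endoderm list of 13 genes, all 13 had a UMI in Col4-high cells, and all 9 with enough UMIs were at least 2-fold higher there than in other PD100 cells, 7 of them with the whole interval past 2-fold (18.2% and 3.68% of all genes). The median log2 ratio of these 9 was 4.43, whereas the median of all 9556 genes was 0.14. Sparc, a matrix glycoprotein, gave 451 UMIs against 475 in the much larger rest of PD100, with a log2 ratio of 4.42 (4.23 to 4.61). Lama1 gave 105 against 23 with 6.69 (6.03 to 7.41), and Pth1r gave 17 against 4 with 6.59 (4.97 to 8.62). The list summed to 12356 CPM in Col4-high cells, 432 CPM in other PD100 cells and 353 CPM in PD800 cells. Per cell it gave 2 to 68 UMIs in Col4-high cells, with a median of 24, against a median of 0 in other PD100 cells and 1 in PD800 cells. The cells were chosen by type IV collagen, and the parietal list holds other basement-membrane genes such as Lama1 and Lamb1. Its rise in Col4-high cells is therefore a description and does not decide between parietal and visceral endoderm.

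In the visceral endoderm list of 19 genes, 14 had no UMI in Col4-high cells, and 8 of these had none in other PD100 cells either. The share of all genes without a UMI in Col4-high cells was not counted, here or for the lists below. The 14 at 0 in Col4-high cells included the secreted carriers Afp, Ttr, Apoa1, Apoa4, Apob and Rbp4 and the regulators Hnf4a, Cer1 and Lhx1. Of the 5 genes tested, 3 were at least 2-fold higher in Col4-high cells (2 by interval) and 1 was lower, beside 18.2%, 3.68% and 10.4% of all genes. The count of 3 was 1 in cells with at least 2000 UMIs and 0 with a minimum of 50 UMIs per gene. The higher genes were Amn and Lrp2, which encode amnionless, the membrane anchor of cubilin, and megalin, its partner receptor, and Soat2, a sterol acyltransferase, with 2 UMIs and a log2 ratio of 1.33 (-1.82 to 3.39). Amn gave 25 UMIs in 12 Col4-high cells against 22 in 15 other PD100 cells, with a log2 ratio of 4.68 (3.80 to 5.58). Lrp2 gave 6 against 9, with 3.91 (2.14 to 5.57). Otx2, which is also an epiblast factor, was lower, with 1 UMI against 148 and a log2 ratio of -2.71 (-8.02 to -0.21). The list summed to 478 CPM in Col4-high cells (37 UMIs) and 141 CPM in other PD100 cells. The zeros are limited by 77371 UMIs in the 34 cells, in which a gene under 38.8 CPM can be missed.

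**Figure D4:**
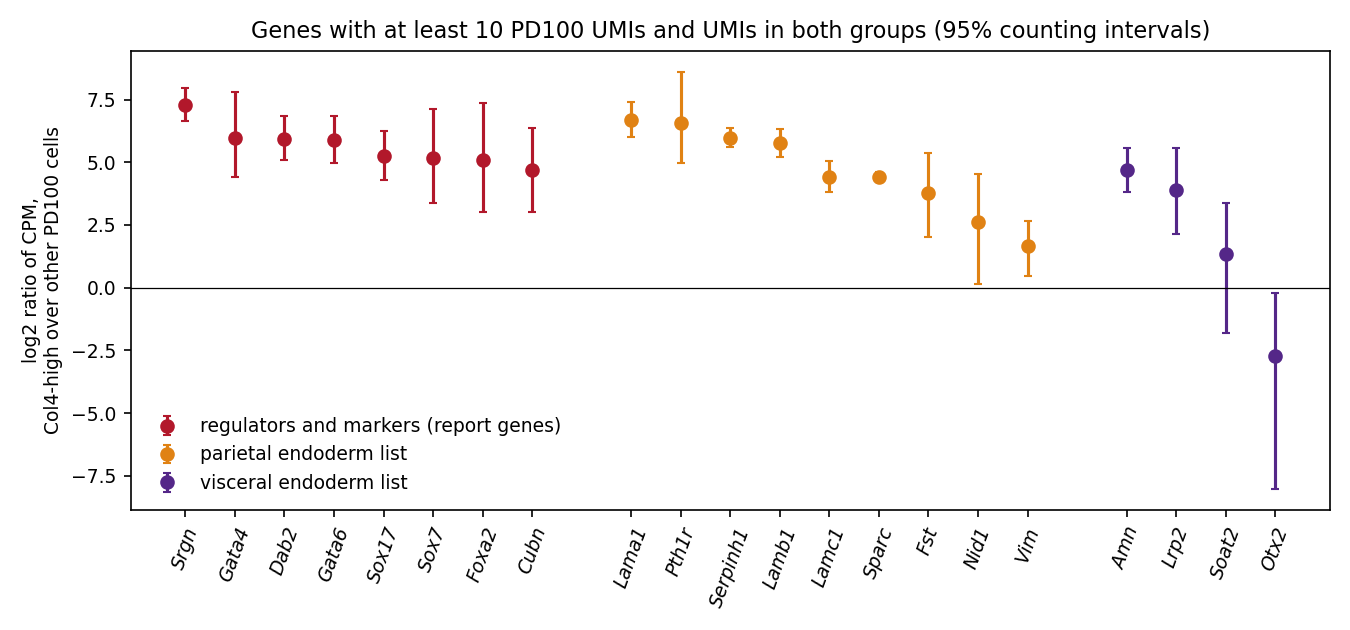
Log2 ratio of CPM between Col4-high and other PD100 cells (y axis, points, with 95% counting intervals) for the regulators and markers, the parietal list and the visceral list, where a gene had at least 10 PD100 UMIs and a UMI in both groups. The 8 regulators and markers lie between 4.69 and 7.28, the parietal genes between 1.65 and 6.69, and Otx2 lies below 0.

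The endocytic machinery around Dab2 and cubilin was measured as a list of 6 genes, of which Amn and Lrp2 also stand in the visceral list. All 6 reached the minimum and 5 were at least 2-fold higher in Col4-high cells, all by interval (18.2% and 3.68% of all genes). Lrpap1, the chaperone of megalin, gave 226 UMIs in 33 of 34 Col4-high cells against 327 UMIs in 204 of 780 other PD100 cells, a log2 ratio of CPM of 3.97 (3.71 to 4.21). The motor Myo6 had a log2 ratio of 3.28 (1.97 to 4.46) and the clathrin heavy chain Cltc 2.01 (1.11 to 2.82), whereas Ap2b1, an adaptor subunit, had 0.69 (-2.42 to 2.68). Among Col4-high cells, the 5 with Cubn held 13 UMIs of Amn and Lrp2 in 4 cells, and the 29 without Cubn held 18 in 11 cells. The parietal list gave a median of 8.35 UMIs per 1000 in the cells with Cubn (4.47 to 12.2) and 12.3 in those without (1.19 to 25.7), ranges that overlap.

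Of the ligands, receptors and targets of the FGF and PDGF pathways, which act upstream of Gata6 and through Pdgfra, 11 genes were tested. None was at least 2-fold higher in Col4-high cells (18.2% of all genes were), and 8 of the 16 listed genes had no UMI there. The phosphatase Ptpn11 was the only gene past 2-fold in the lower direction (10.4% of all genes were), with 1 UMI against 71. Its log2 ratio was -1.65 (-6.97 to 0.87), an interval that includes 0. A listed gene without a UMI in Col4-high cells could not be called lower, because 3 counts stood in for its 0. Fgf4, the FGF ligand of pluripotent cells, had no UMI against 69, and Fgfr1 none against 73, and at this depth the ratio bounds were -0.03 and -0.11. Pdgfa, a ligand of Pdgfra, gave 3 UMIs against 55, with a log2 ratio of 0.30 (-2.02 to 1.92).

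Markers of other cell types that such a culture could hold were counted in the same 34 cells. Of 12 fibroblast (feeder) genes, 11 had no UMI, Col1a1, Col1a2 and Col3a1 among them, and the list summed to 1 UMI. Definitive endoderm genes were at 0 for 6 of 6, blood and endothelium for 8 of 9, trophoblast for 7 of 9, and related GATA, SOX and FOX genes for 6 of 7. Also at 0 in other PD100 cells were 2 fibroblast, 4 definitive endoderm, 1 blood or endothelium, 1 trophoblast and 1 related gene. In the other PD100 cells the fibroblast, definitive endoderm, blood and endothelium, trophoblast and related lists summed to 20.6, 2.29, 25.2, 49.2 and 22.9 CPM. At 77371 UMIs in Col4-high cells, genes at such levels can be missed. These zeros therefore do not show that those cell types were absent. Of 11 stem cell genes, all were tested and 8 were at least 2-fold lower in Col4-high cells, as were 10.4% of 9556 genes. Pou5f1 gave 11 UMIs against 1019, with a log2 ratio of -2.04 (-3.04 to -1.19), and Zfp42 gave 3 against 1035, with -3.93 (-6.21 to -2.38). The stem cell list gave 1 to 40 UMIs per Col4-high cell, with a median of 5.35 per 1000 UMIs against 11.9 in other PD100 cells. Most of these UMIs were of Dppa5a, 393 of 441 in Col4-high cells and 15752 of 21733 in other PD100 cells. Dppa5a had a log2 ratio of -0.83 (-0.97 to -0.68). Klf4 was not lower, with 0.64 (-0.61 to 1.67), and Tfcp2l1 had no UMI in Col4-high cells. How many of these stem cell UMIs came from free RNA was not tested.

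To see whether the genes differed after ALT was established, PD800 was set against all PD100 cells. Of the 9 genes with at least 10 UMIs, 8 had a CPM at least 2-fold lower in PD800, and the same 8 did so by interval, against 21.6% and 5.32% of 11834 genes. Since 9 genes reached the minimum in PD100 alone and 1, Hhex, in PD800 alone, this count is again a description. Gata6 was at least 25.4-fold lower in PD800 and Srgn at least 85.3-fold lower, both from 0 UMIs. The log2 ratio of CPM was -4.93 (-8.02 to -2.98) for Sox17, -4.41 (-9.80 to -1.71) for Cubn, -4.20 (-9.61 to -1.46) for Sox7, -3.82 (-9.26 to -1.01) for Foxa2, -3.75 (-6.89 to -1.70) for Gata4 and -3.31 (-4.50 to -2.29) for Dab2. These 6 intervals overlap. Hhex, with -0.74 (-2.04 to 0.53), and Pdgfra, under the minimum of 10 UMIs, with -2.82 (-8.38 to 0.34), were not distinguishable from 0 by their counting intervals. The median of all 11834 genes was -0.34 by library totals and 0.13 by median-of-ratios scaling, a shift of 0.47. By that scaling 10.4% of genes in place of 21.6% were at least 2-fold lower, and so were 8 of the 10 genes.

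Col4-high cells, which were 4.18% of PD100 cells and were not found among kept PD800 cells, held 309 of the 416 PD100 UMIs of the 10 genes. Against the other PD100 cells alone, 5 of the 10 genes reached 10 UMIs, and 4 were at least 2-fold lower in PD800, Gata6, Sox17, Dab2 and Srgn (21.0% of 11736 genes were), of which all but Dab2 were lower by interval (4.77%). Gata6 was then at least 7.38-fold lower and Srgn at least 11.3-fold lower, and the log2 ratio was -3.56 (-6.73 to -1.47) for Sox17 and -1.48 (-2.83 to -0.23) for Dab2. Hhex was at -0.80 (-2.10 to 0.47), close to its value against all PD100 cells. The genes under the minimum had few UMIs in both groups. The intervals for Gata4, Sox7 and Foxa2 included 0, and Cubn was at -3.37 (-8.86 to -0.41). Some of the remaining UMIs in the other PD100 cells lay in the 6 cells just under the Col4 threshold, as given above. Median mitochondrial share was 4.42% in PD800 against 1.23% in PD100, and its part in these differences was not tested.

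**Figure D5:**
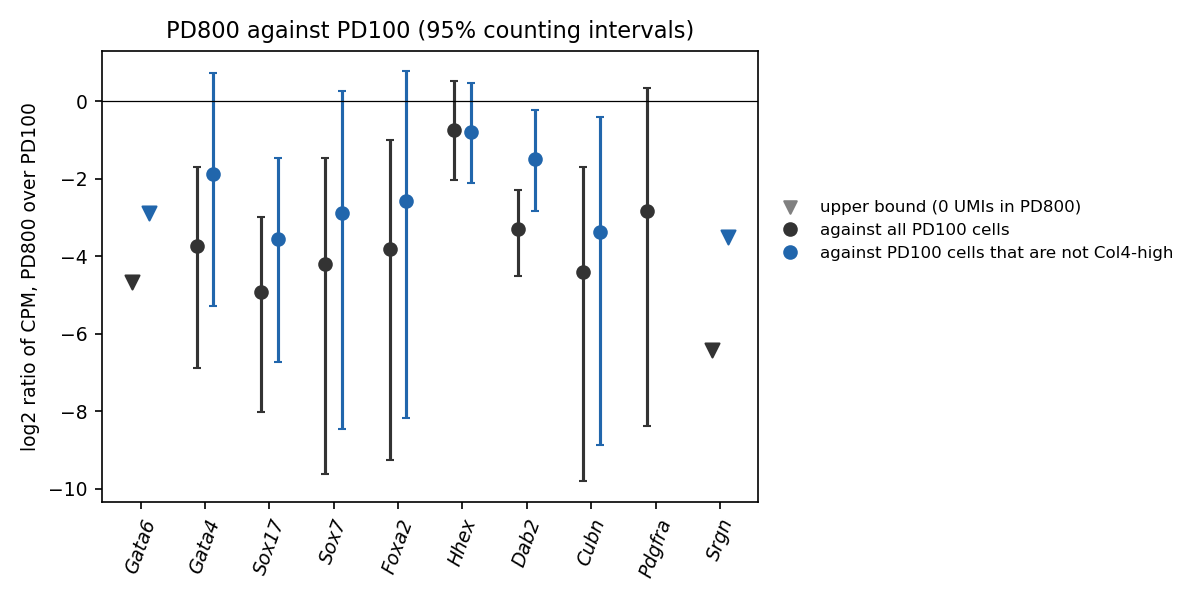
Log2 ratio of CPM between PD800 and PD100 (y axis) for each gene against all PD100 cells (black) and against PD100 cells that are not Col4-high (blue), with 95% counting intervals. Triangles are upper bounds for genes with 0 UMIs in PD800. Except for Hhex, at -0.74 and -0.80, every gene drawn in both colours lies nearer to 0 without the Col4-high cells. In blue, Gata4, Sox7, Foxa2 and Cubn were under the minimum of 10 UMIs, as was Pdgfra in black.

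The lists gave the following values between the libraries. In the parietal list, 6 of 9 tested genes were at least 2-fold lower in PD800 and 2, Nid1 and Vim, were higher, where 21.6% of 11834 genes were lower and 10.9% higher. In the visceral list, 5 of 7 were lower and Soat2 was higher. Of the 6 endocytic genes, 4 were lower, Amn, Lrp2, Lrpap1 and Myo6. In the stem cell list, none of 11 was lower and 3 were higher, Nanog, Esrrb and Klf4. Of the FGF and PDGF list, 3 of 13 were lower, a share close to that of all genes, and none was higher.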

How the data were processed

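Raw counts were deposited, each value being the UMIs of a gene in a barcode, and the authors obtained them by running the inDrops pipeline on a GRCm38 (mm10) transcriptome. Per the labels Scanpy was also used, and the annotation release was not given in the sources used here. Kept cells held 1826233 UMIs (PD100) and 2580963 UMIs (PD800) of 1291 and 1666 barcodes. Left out were 477 and 766 barcodes.

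UMIs were summed over the cells of a group. With 1 library per time point no test was computed. CPM received exact Poisson intervals, shares exact binomial (Clopper-Pearson) intervals and ratios exact conditional intervals, at 95%. A sum of 0 was replaced by 3 counts over the group to give a bound. Genes were called past 2-fold where both groups together held 10 UMIs or more, and ratios of members with fewer UMIs are given as values only. Cells were thinned to 1000 UMIs with seed 1. Doublets were kept in the main values. Scrublet, in Scanpy 1.11.5 at an expected rate of 5%, marked 14 PD100 cells (1.72%, of which 1 was Col4-high) and 8 PD800 cells (0.889%). Python 3.11.15, NumPy 2.4.6, SciPy 1.17.1, pandas 2.3.3 and matplotlib 3.10.9 were used, and the steps were tested on simulated data.

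Genes named were the 10 members, Col4a1 and Col4a2, list genes, and the 10 further genes of at least 20 PD100 UMIs with the highest share in Col4-high cells. The members and lists were chosen with earlier results of these data known. Alternatives covered the cell filter, doublets, the Col4 threshold, thinning, the gene minimum and scaling. The rule on the interval past 2-fold was added after the data were seen.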

Additional observations from a re-analysis of the deposited data

Results flagged for a closer look

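Barcodes that failed the cell filter were in no comparison. In PD100 the 477 barcodes left out held 246800 UMIs, and UMIs of several of the genes were found there at CPM above the PD800 barcodes left out. Srgn gave 15 UMIs, Gata6 9, Gata4 6, Sox17 4 and Dab2 4. The 766 PD800 barcodes left out, with 458381 UMIs, gave 3 for Srgn, 0 for Gata6, 2 for Gata4, 0 for Sox17 and 1 for Dab2. All 10 genes together gave 47 UMIs in 32 of the PD100 barcodes and 7 UMIs in 7 of the PD800 barcodes. Of the PD100 barcodes left out, 4 would be Col4-high, and they held 5 of the 47 UMIs. Of the PD800 barcodes left out, 1 would be Col4-high, with 721 UMIs in all and none of the 10 genes.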

How the results depend on the processing

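The number of Col4-high PD100 cells was 34 and ran from 23 to 44 over the 6 alternatives, and the median number of genes found per such cell was 2 or 3. Of the summary values, 55 kept within 1.5 times the main value and 10 moved. The count of the 10 genes lower in PD800 went from 8 to 4 without the Col4-high cells and to 3 with a minimum of 50 UMIs per gene. The count higher in Col4-high cells went from 8 to 3 with that minimum, since fewer genes were then tested. The count lower in PD800 was 9 without the cell filter or with a minimum of 1 UMI, and 7 in cells with at least 2000 UMIs. For Hhex the log2 ratio of PD800 to PD100 was -1.09 without the cell filter and -1.23 in cells with at least 2000 UMIs. Over all genes, those lower in PD800 went from 2554 to 1233 by median-of-ratios scaling, to 1178 with 50 UMIs and to 630 by interval. Those higher in Col4-high cells went from 1736 to 580 with 50 UMIs and to 352 by interval. Visceral genes higher in Col4-high cells went from 3 to 1 in cells with at least 2000 UMIs and to 0 with 50 UMIs. Of the values of single genes, 157 stayed within the counting interval of the main value, or within 1 log2 unit for a bound. The other 8 moved, none in direction. The shares of Gata4 and Sox17 fell on thinning, and the log2 ratios of Gata6, Dab2 and Srgn to the other PD100 cells were 4.77, 4.94 and 6.38 when the Col4 threshold was set on thinned cells. No paired analysis was possible because each time point had 1 library and no test was made. Depth limits any gene under 38.8 CPM in Col4-high cells.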
